A study of Mus musculus with 2 samples.

Results

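The 9 genes described here belong to the type 2 cytokine and GATA3 axis and were chosen by name from the 32228 genes of the deposited tables. They are the cytokine genes Il4, Il5, Il13 and Csf2, the neuropeptide gene Calca, the receptor genes Il17rb and Il9r, and the transcription factor genes Gata3 and Hlf. All 9 were found, and for each the unique molecular identifiers (UMIs, 1 per captured RNA molecule) were followed to the kind of cell that carried them. The cells were live CD45+ leukocytes sorted from the colonic lamina propria (LP) of C57BL/6 mice aged 8 to 10 weeks, and per the study's methods all mice of both groups had dextran sulfate sodium (DSS) colitis and several mice were pooled per group. There was 1 library labelled WT and 1 labelled Ring1AKO, a Ring1 knockout line whose littermates were the controls, per the methods. Ring1 encodes a ubiquitin ligase subunit of polycomb repressive complex 1, and how its knockout allele was made is not given in the sources used here. With 1 library per group no test was made, genotype and library cannot be told apart, and every interval is an exact 95% interval that covers counting error only.

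Type 2 immunity is the arm of the immune system that acts at barrier tissues against worms and allergens and in tissue repair. Group 2 innate lymphoid cells (ILC2s) lack antigen receptors and release IL-5 and IL-13 when epithelial alarmins reach them, while T helper cells of the type 2 kind, mast cells and basophils release IL-4 and IL-13. GATA3 is the zinc finger factor that ILC2s and type 2 T helper cells need for their development and that acts at the cytokine genes. IL-17RB is the receptor chain for IL-25, and calcitonin gene-related peptide (CGRP), made from Calca, is a neuropeptide that ILC2s both sense and make.

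Of the 9 genes, 6 lie on chromosome 11 of the mouse genome (GENCODE vM21 on GRCm38, used for positions only). Il4 (chr11:53602982-53618669), Il13 (chr11:53631324-53634702) and Il5 (chr11:53720794-53725106) fall within 122 kb, with Rad50 between Il13 and Il5, and Csf2 (chr11:54247271-54249667), Il9r (chr11:32187541-32200279) and Hlf (chr11:90336536-90390895) lie elsewhere on the chromosome. Gata3 is at chr2:9857078-9890034, Calca at chr7:114631478-114636357 and Il17rb at chr14:29996135-30008896, where Il17rb overlaps Actr8 on the other strand. The letters AGATAA along with the related AGATAG, and TGATAA along with its relative TGATAG, which zinc finger factors of the GATA family recognise, were searched on both strands in RefSeq promoter windows of 250 bases before to 50 bases after each gene start (GRCm38.p6). At least 1 match was found in the nearest window of 7 of the 9 genes, all but Il17rb and Hlf, against 29.8% of all 32851 windows. Il9r had a pair of matches, as had 7.77% of all windows. These windows were set at RefSeq starts, and that of Gata3 lay 11434 bases and that of Csf2 232 bases from the GENCODE start. The matches of Gata3 and Il4 lay after the start, at 36 and 14 bases. The 250 bases before the start are printed for Il5 (chr11:53720544-53720793, + strand), Il13 (chr11:53634703-53634952, - strand) and Calca (chr7:114636358-114636607, - strand), since these 3 genes had the highest shares of their UMIs in the ILC2 gate, described next, in both libraries. Each run reads 5′ to 3′ toward the gene, and capitals mark the match, whose first base lies 72, 81 and 218 bases before the start. A match describes the letters and shows no binding.
Il5: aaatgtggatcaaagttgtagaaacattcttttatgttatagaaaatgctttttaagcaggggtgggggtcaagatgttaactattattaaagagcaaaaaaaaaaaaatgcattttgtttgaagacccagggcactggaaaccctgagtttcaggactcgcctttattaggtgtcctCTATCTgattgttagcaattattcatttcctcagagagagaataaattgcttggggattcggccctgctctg
Il13: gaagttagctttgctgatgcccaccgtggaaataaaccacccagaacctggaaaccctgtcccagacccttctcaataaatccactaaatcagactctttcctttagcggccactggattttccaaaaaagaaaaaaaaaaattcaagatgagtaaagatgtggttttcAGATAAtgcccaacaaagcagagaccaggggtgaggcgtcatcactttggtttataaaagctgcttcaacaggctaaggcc
Calca: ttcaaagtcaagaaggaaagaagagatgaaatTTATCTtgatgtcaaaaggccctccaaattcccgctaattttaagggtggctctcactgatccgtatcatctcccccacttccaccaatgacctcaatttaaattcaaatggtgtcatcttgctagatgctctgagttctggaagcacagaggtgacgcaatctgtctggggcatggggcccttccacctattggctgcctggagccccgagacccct

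Barcodes with at least 1000 UMIs, at least 500 genes and less than 5% mitochondrial UMIs were kept, which left 6005 labelled WT with a median of 6354 UMIs and 7918 labelled Ring1AKO with a median of 5035. Each kept barcode was put in a gate by 13 lists of 8 marker genes, none of which holds any of the 9 genes, where at least 3 markers of a list had a UMI and that list led all others. The gates were named by lineage and are ranges of marker counts, not proven cell types. The ILC2 gate (Il1rl1, Klrg1, Rora, Nmur1, Areg, Hes1, Arg1, Pparg) held 168 barcodes labelled WT (2.80%, 2.40 to 3.25) and 101 labelled Ring1AKO (1.28%, 1.04 to 1.55). Marker genes of this gate themselves differed between the libraries (Nmur1 had 20 and 1 UMIs in it), so its size is not read as a result. In each library, 62 and 39 of these barcodes sat at the minimum of 3 markers, 49 and 38 barcodes with 2 ILC2 markers fell just outside, and 8 and 4 had 3 or more markers of a second list. Among genes not used for gating, Il7r, Icos, Cd200r1, Rxrg, Slc7a8, Ptpn13, Ccl1 and Dgat2 each had a higher level inside than outside the gate in both libraries. Il7r, the receptor chain for IL-7, stood at 579 and 668 CPM (UMIs of the gene scaled to 1000000 UMIs of the gate), against 109 and 85.0 outside. Neither Il7r nor Icos was particular to this gate. Il7r had 1099 and 987 CPM in the gate of group 3 innate lymphoid cells (ILC3). Icos had 1494 and 1206 CPM in the regulatory T cell (Treg) gate, against 614 and 470 in the ILC2 gate. Ring1 itself was still counted, with 13.5 CPM over the whole library labelled WT and 12.0 in the one labelled Ring1AKO. UMIs taken near the 3′ end give no view of a change further upstream, so genotypes rest on the labels.

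In the library labelled WT the ILC2 gate held more UMIs of 8 of the 9 genes than any other single gate, although it held few barcodes. It held 77.8% of 785 Il5 UMIs, 67.5% of 1186 Il13 UMIs, 63.9% of 1480 Calca UMIs, 55.4% of 1595 Csf2 UMIs, 54.0% of 1014 Il17rb UMIs and 49.6% of 1227 Il4 UMIs. For the transcription factor genes the share was lower, with 37.7% of 1010 Hlf UMIs and 31.0% of 2929 Gata3 UMIs, while the Treg, CD4 T and other T gates together held 43.2% of Hlf and 52.1% of Gata3. Il9r, which encodes the receptor chain for IL-9, had 22.0% of its 359 UMIs in the ILC2 gate and 40.1% in the B gate. In the library labelled Ring1AKO, the share of Il5 (76.1% of 544 UMIs) was within the interval of the library labelled WT. That of Calca (67.7% of 3256, 66.1 to 69.3) was above the interval labelled WT (61.3 to 66.3), but the 2 intervals overlap. The other 7 genes had a lower share there than the interval of the library labelled WT. They were Il4 (27.2% of 964 UMIs), Il13 (49.7% of 740), Csf2 (46.2%), Il17rb (39.5%), Gata3 (24.5%), Hlf (21.6%) and Il9r (6.64%). A share also depends on the size of the gate, 2.80% and 1.28% of kept barcodes, whose part in the lower shares was not tested. For Hlf the CD4 T gate held slightly more, 22.6%, and for Il4 the mast and basophil gates held 14.5% and 22.3%. The 3 T gates together held 28.7% and 21.1% of the Il4 UMIs.

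**Figure D1:**
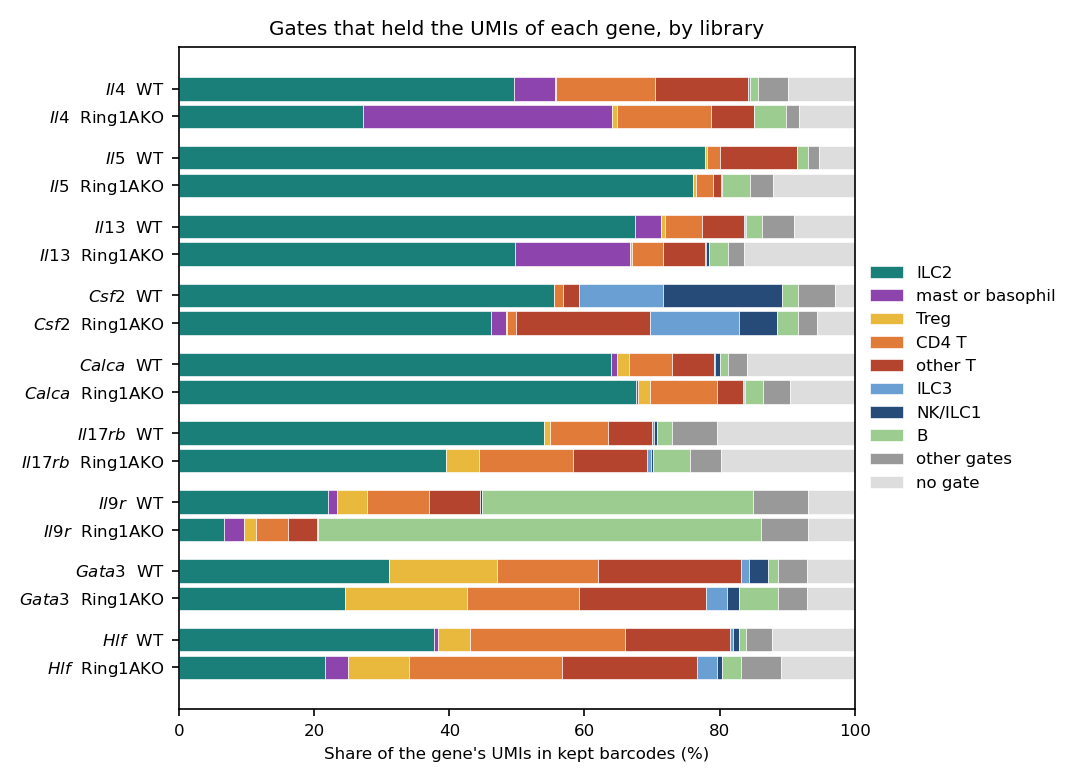
Share of each gene's UMIs (x axis, %) in kept barcodes that fell in each gate, as stacked bars with 1 bar per gene and library. The ILC2 gate is the largest block for Il5, Il13, Calca and Csf2 in both libraries, the mast and basophil block of Il4 is larger in the library labelled Ring1AKO, and the B gate is the largest block for Il9r.

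Among the cytokine genes in the ILC2 gate, the summed levels of both libraries were close for Csf2 and differed by less than 2-fold for the others. Il5, the eosinophil growth factor, had 611 UMIs labelled WT, or 692 CPM (638 to 749), and 414 labelled Ring1AKO, or 869 CPM (788 to 957), a log2 ratio of 0.33 (0.15 to 0.51) of Ring1AKO over WT. That difference rested on few barcodes. The 5 barcodes with the most Il5 held 65.0% of the Il5 UMIs labelled Ring1AKO and 32.6% of those labelled WT, and without them the log2 ratio was -0.57. Il5 was found in 74 of 168 barcodes labelled WT (44.0%) and in 31 of 101 labelled Ring1AKO (30.7%), and with every barcode thinned to 1000 UMIs the shares were 25.0% (18.7 to 32.3) and 17.8% (10.9 to 26.7), whose intervals overlap. Il13, which drives mucus and smooth muscle responses, had 800 UMIs, or 906 CPM (845 to 971), against 368 UMIs, or 773 CPM (696 to 856), a log2 ratio of -0.23 (-0.41 to -0.05). It was found in 62.5% of the barcodes labelled WT and 35.6% of those labelled Ring1AKO. At equal depth the shares were 39.9% (32.4 to 47.7) and 24.8% (16.7 to 34.3), whose intervals overlap. Il4, the cytokine of IgE class switching, had 609 UMIs, or 689.9 CPM (636 to 747), against 262 UMIs, or 550.1 CPM (486 to 621), a log2 ratio of -0.32 (-0.54 to -0.12). Csf2, which encodes the myeloid growth factor GM-CSF, had 1001 CPM (936 to 1070) and 983 CPM (896 to 1076), a log2 ratio of -0.03 (-0.19 to 0.14), and was found in 40.5% and 40.6% of the barcodes.

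Calca had the largest difference of the 9 genes in the ILC2 gate. It had 945 UMIs labelled WT, or 1070.5 CPM (1003 to 1141), and 2204 labelled Ring1AKO, or 4628 CPM (4436 to 4825), a log2 ratio of 2.11 (2.001 to 2.22). The share of barcodes with a Calca UMI was close, 54.2% and 51.5%, and the medians were both 1 UMI. The difference lay in the barcodes with much Calca. Among barcodes with any, the median was 5 UMIs labelled WT and 9.5 labelled Ring1AKO, 9 of 168 and 15 of 101 barcodes had 20 or more, and the highest held 139 and 424. Of all Calca UMIs in the gate, 8 barcodes labelled WT and 4 labelled Ring1AKO held the upper 50%, and without the 5 highest barcodes of each library the log2 ratio was 1.57.

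**Figure D2:**
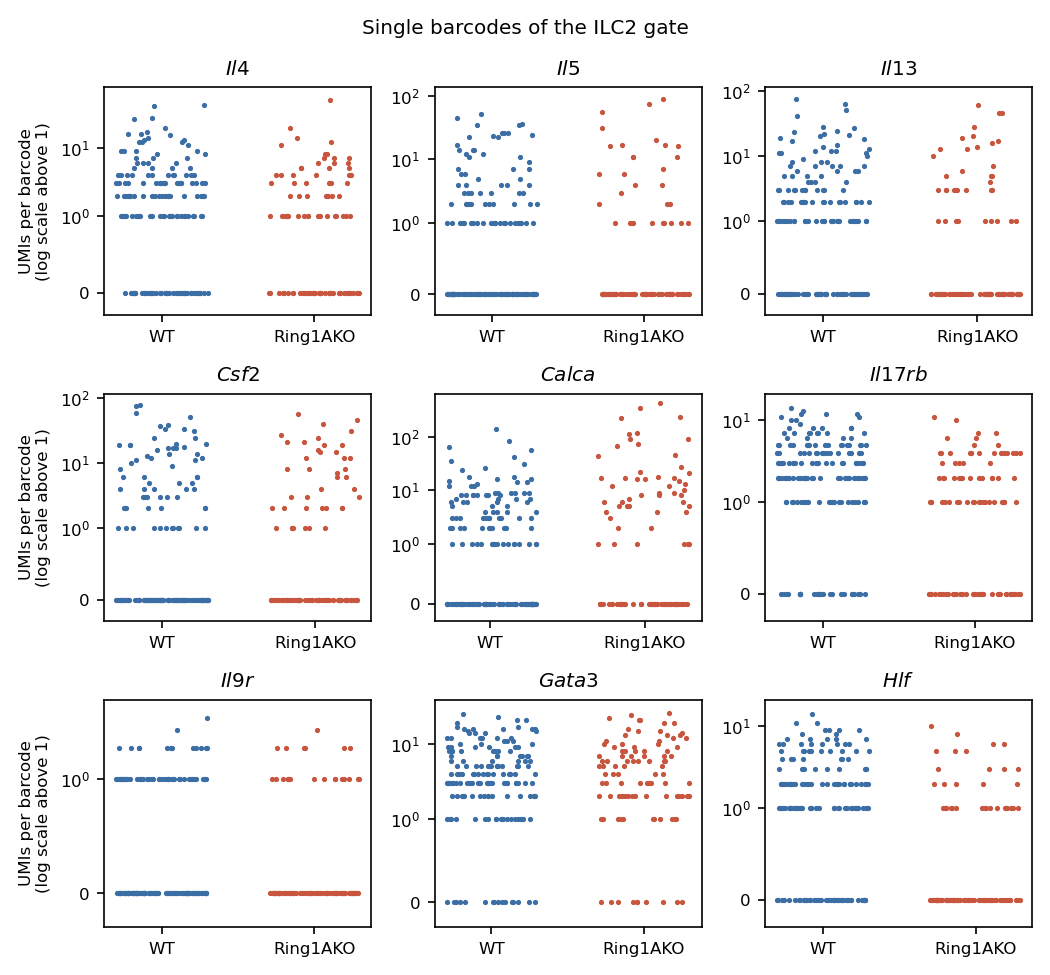
UMIs of each gene (y axis, linear from 0 to 1 and logarithmic above) in every barcode of the ILC2 gate, 168 labelled WT and 101 labelled Ring1AKO, spread sideways at random. Calca reaches 139 and 424 UMIs in a single barcode, while Il17rb and Hlf stay at 14 UMIs or fewer and have more barcodes at 0 in the library labelled Ring1AKO.

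Of the receptor genes, Il17rb was lower in the ILC2 gate labelled Ring1AKO beyond counting error and Il9r was not. Il17rb had 548 UMIs labelled WT, or 621 CPM (570 to 675), and 178 labelled Ring1AKO, or 374 CPM (321 to 433), a log2 ratio of -0.73 (-0.98 to -0.49). Unlike Calca, it was spread over many barcodes, at most 14 UMIs in any, and was found in 142 of 168 barcodes (84.5%) and 63 of 101 (62.4%). After each barcode was thinned to 1000 UMIs, to set both libraries at the same depth, the shares were 47.0% (39.3 to 54.9) and 30.7% (21.9 to 40.7), whose intervals overlap. Il9r had 79 and 31 UMIs, or 89.5 CPM (70.9 to 112) and 65.1 CPM (44.2 to 92.4), and its log2 ratio of -0.43 (-1.11 to 0.16) was within counting error.

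Gata3 and Hlf went in different directions. Gata3 was found in 152 of 168 and 91 of 101 barcodes of the ILC2 gate (90.5% and 90.1%), the highest share of any of the 9 genes. Its level was 1029.7 CPM (964 to 1099) labelled WT and 1268 CPM (1169 to 1373) labelled Ring1AKO, a log2 ratio of 0.30 (0.15 to 0.45), with a median of 4 UMIs per barcode in both. Hlf, a bZIP factor of the proline and acidic amino acid rich family known from haematopoietic stem cells and circadian output, had 381 UMIs, or 432 CPM (389 to 477), and 85 UMIs, or 178.5 CPM (143 to 221). Its log2 ratio was -1.26 (-1.63 to -0.93), and it was found in 71.4% and 33.7% of the barcodes, or 30.4% (23.5 to 37.9) and 12.9% (7.04 to 21.0) at equal depth. Tef, a paralog of Hlf, had 18 UMIs labelled WT and 2 labelled Ring1AKO in the same gate.

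**Figure D3:**
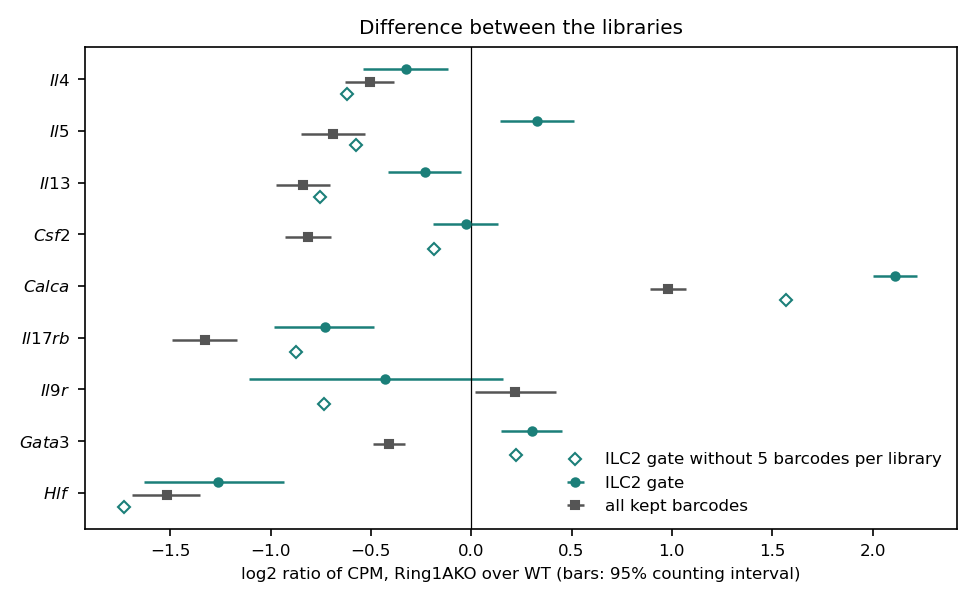
Log2 ratio of the level in CPM, Ring1AKO over WT (x axis), for each gene in the ILC2 gate (circles) and over all kept barcodes (squares), with 95% counting intervals, and in the ILC2 gate after the 5 barcodes of each library with the most UMIs of the gene were left out (open diamonds). Calca lies to the right in all, Il17rb and Hlf to the left in all, and Il5 changes side without 5 barcodes per library.

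Of the 9 genes, 1 (Calca) was at least 2-fold higher and 1 (Hlf) at least 2-fold lower in the ILC2 gate labelled Ring1AKO. Among all 6185 genes with at least 20 UMIs in the gate, 3.41% were at least 2-fold higher and 7.55% at least 2-fold lower. The median log2 ratio was -0.23 over the 9 genes and -0.05 over all genes. Of 13 other receptor genes of type 2 lymphocytes that do not define the gate, 11 had at least 20 UMIs, and 1 was higher and 1 lower by that measure. Ramp1, a partner of the CGRP receptor, had 28.3 CPM labelled WT and 75.6 labelled Ring1AKO, and Calcrl, the CGRP receptor itself, had 24 and 4 UMIs. Of 17 transcription factors around Gata3, 15 had at least 20 UMIs and 1, Tef, passed 2-fold. Smaller differences beyond counting error were seen for Id2 (log2 ratio 0.75), Batf (0.98), Gfi1 (0.89), Rbpj (-0.95), Maf (-0.67), Irf4 (-0.69) and Nfil3 (-0.66), against 8.41% of all genes higher and 12.9% lower beyond counting error in the gate. Of 9 other type 2 ligands and upstream cytokines, 2 had at least 20 UMIs. Il6 had 70 and 15 UMIs, or 79.3 and 31.5 CPM, a log2 ratio of -1.26 (-2.24 to -0.51). Il2 had 69 and 63 UMIs, or 78.2 and 132 CPM, a log2 ratio of 0.76 (0.24 to 1.27).

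Over all kept barcodes, which also weighs in how many barcodes fell in each gate, 7 of the 9 genes were lower in the library labelled Ring1AKO beyond counting error and 2, Calca and Il9r, were higher. Among all 15407 genes with at least 20 UMIs, 43.3% were lower and 18.6% higher by that measure, with a median log2 ratio of -0.16. Il17rb (16.4 and 6.53 CPM, log2 ratio -1.33, -1.49 to -1.17) and Hlf (16.3 and 5.69 CPM, -1.52, -1.69 to -1.35) were at least 2-fold lower, as were 9.48% of all genes, and none of the 9 was at least 2-fold higher, against 1.82% of genes. Il5 had 12.7 and 7.88 CPM (log2 ratio -0.69, -0.85 to -0.53) and Gata3 47.3 and 35.7 CPM (-0.41, -0.49 to -0.33), lower in the total although their summed levels in the ILC2 gate were higher. For Il5 that higher sum rested on few barcodes. Without the 5 barcodes of each library with the most UMIs of the gene, the ILC2 gate had log2 ratios of -0.57 for Il5 and 0.22 for Gata3. Calca had 23.9 and 47.2 CPM (0.98, 0.89 to 1.07). Per 1000 kept barcodes, the ILC2 gate gave 102 and 52.3 Il5 UMIs, 133 and 46.5 Il13 UMIs, and 157 and 278 Calca UMIs.

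The cytokine genes Il4, Il5 and Il13 were found together in part of the barcodes. In the ILC2 gate labelled WT, 44 of 168 barcodes had all 3, 61 had 2, 44 had 1 and 19 had none, and labelled Ring1AKO, 15 of 101 had all 3, 22 had 2, 35 had 1 and 29 had none. A median of 6 of the 9 genes was found per barcode labelled WT and 4 labelled Ring1AKO, at a median depth of 5020.5 and 4497 UMIs. With every barcode thinned to 1000 UMIs, Il13 was found in 69.0% of the 42 barcodes with Il5 and in 30.2% of those without it in the library labelled WT, and in 55.6% of 18 and 18.1% of the rest in the one labelled Ring1AKO. Il13 was also found in 50.9% of barcodes with Il4 and 34.2% without it labelled WT, and in 48.1% and 16.2% labelled Ring1AKO. Il5 differed less with Il4, found in 26.3% of barcodes with it and 24.3% without it labelled WT, and in 22.2% and 16.2% labelled Ring1AKO. Calca was found in 52.4% of barcodes with Il5 and 27.0% without it labelled WT, and in 72.2% and 28.9% labelled Ring1AKO. With Il4 the order was the other way at this depth, with Calca in 31.6% of barcodes with Il4 and 34.2% without it labelled WT, and in 29.6% and 39.2% labelled Ring1AKO. This order did not hold before thinning labelled Ring1AKO, where Calca was in 59.6% and 40.9%, and the shares labelled WT were 53.8% and 55.1%. At equal depth Il17rb was in 37.0% of the 46 barcodes with Csf2 and 50.8% of those without labelled WT, and in 10.7% of 28 and 38.4% labelled Ring1AKO. Before thinning it was in 76.5% and 48.8% of the barcodes with Csf2, so many barcodes held both. None of these differences between barcodes was tested.

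Mast cells and basophils also carried Il4 and Il13. The mast gate held 0 barcodes labelled WT and 17 labelled Ring1AKO, and the basophil gate held 14 and 17, but most barcodes with mast cell proteases also carried genes of the basophil list, so both lists were also joined to 1 gate of 16 and 41 barcodes, a step chosen after the data were seen. In the joined gate, proteases of mast cells led Mcpt8, a basophil protease, in 6 and 32 barcodes. Il4 had 90 UMIs there labelled WT, or 7.33% of its total, and 362 labelled Ring1AKO, or 37.6%. As a level this was 461 and 1019 CPM, a log2 ratio of 1.13 (0.81 to 1.49), and it rested on few barcodes, since the highest held 33 labelled WT and 85 and 80 labelled Ring1AKO, and the median barcode held 2.5 and 1. Il13 had 76 and 130 UMIs, or 389 and 366 CPM, a log2 ratio of -0.10 (-0.51 to 0.34). Gata3, Il5 and Il17rb were at 0 UMIs in the joined gate of both libraries, among 195150 and 355220 UMIs. In the basophil gate alone Il4 had 486 and 1442 CPM and Il13 306 and 691 CPM, but the mast gate labelled WT was empty, so barcodes of the same kind fell in different gates. Within the joined gate, Il4 had 521 and 1090 CPM in the barcodes where mast cell proteases led. Where Mcpt8 led, in 9 and 5 barcodes, Il4 had 369 and 273 CPM, from 28 and 11 UMIs.

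**Figure D4:**
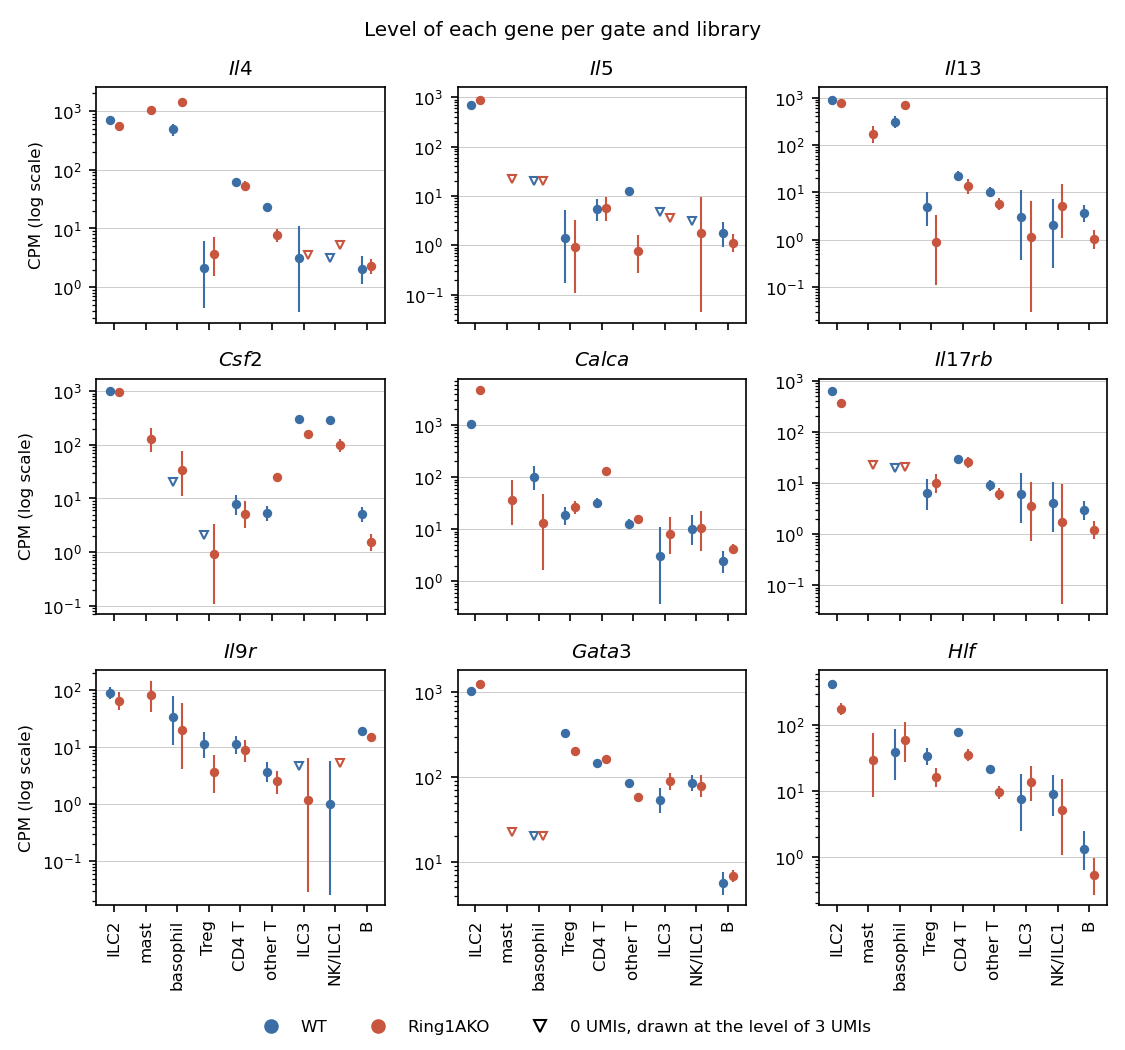
Level of each gene (y axis, CPM on a logarithmic scale) in 9 gates, with exact 95% Poisson intervals, for the libraries labelled WT and Ring1AKO. Open triangles stand for 0 UMIs and are drawn at the level of 3 UMIs, and the mast gate labelled WT holds no barcode. Il4 and Il13 are high in the ILC2, mast and basophil gates, Gata3 is at 0 in the mast and basophil gates, and the B gate is among the lowest for all genes but Il9r.

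T cells carried Gata3 and Hlf at lower levels, and the cytokine genes in few barcodes. Gata3 had 333 CPM in the Treg gate labelled WT and 201 in the one labelled Ring1AKO, a log2 ratio of -0.72 (-0.92 to -0.53). It had 149 and 164 CPM in the CD4 T gate, and 85.8 and 58.3 CPM in the other T gate (-0.56, -0.73 to -0.38). The share of barcodes with a Gata3 UMI was not lower in the Treg gate, 48.3% and 51.5%. At equal depth the intervals of this share, 14.8 to 26.1% and 16.5 to 27.5%, overlap. In the other T gate the share was lower, 24.2% and 17.8%. In the Treg gate, 11 of 205 and 37 of 231 barcodes had 3 or more markers of a second list, whose part was not tested. Hlf was lower in every T gate, with 34.1 and 16.4 CPM in the Treg gate (log2 ratio -1.05, -1.72 to -0.40), 78.3 and 35.7 in the CD4 T gate (-1.12, -1.50 to -0.77) and 21.8 and 9.82 in the other T gate (-1.14, -1.56 to -0.75). The CD4 T gate held 42 of 437 and 40 of 365 barcodes with Il4, Il5 or Il13, and in these Gata3 stood at 689 and 718 CPM, against 81.9 and 106 CPM in the rest of the gate. Trac, the constant part of the T cell receptor alpha chain, was found in 83.3% and 85.0% of these barcodes, and in 5.37% and 5.56% of the ILC2 gate barcodes with any of these cytokines. Trbc2, a constant part of the beta chain, did not separate them so, with 88.1% and 92.5% in the former and 79.9% and 66.7% in the latter. Both genes are on the marker list of the T gates, so these shares are partly set by the gating and give no independent check of it. Il5 in the other T gate had 89 UMIs labelled WT and 6 labelled Ring1AKO, or 12.3 and 0.755 CPM, with 84.3% of the former in 5 barcodes. Il4 had 170 and 61 UMIs in that gate (log2 ratio -1.60, -2.06 to -1.19) and Il13 74 and 46 (-0.81, -1.39 to -0.27). These also rested on few barcodes, and without 5 barcodes per library the log2 ratios were -0.79 and -0.15. Calca in the CD4 T gate had 31.9 and 129 CPM (log2 ratio 2.01, 1.68 to 2.37), where 1 barcode labelled Ring1AKO held 127 of 322 UMIs, and without 5 barcodes per library the log2 ratio was 0.77.

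Csf2 was the only one of the 9 genes with more than 10% of its UMIs in the ILC3 or NK/ILC1 gate. In the ILC3 gate (92 and 121 barcodes) it had 306 CPM labelled WT and 157 labelled Ring1AKO (log2 ratio -0.96, -1.29 to -0.64), but 5 barcodes held 88.4% and 72.4% of these UMIs, and without them the log2 ratio was 0.22. In the NK/ILC1 gate it had 289 and 98.8 CPM (-1.53, -1.98 to -1.13), and in the other T gate 5.27 and 25.4 CPM (2.24, 1.77 to 2.81), there in 25 and 51 barcodes. Il4 and Il5 together had 2 and 1 UMIs in the ILC3 and NK/ILC1 gates.

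Il9r differed from the other genes in its source. The B gate had 144 Il9r UMIs in 103 of 1265 barcodes labelled WT and 306 UMIs in 241 of 3799 labelled Ring1AKO, at most 4 and 6 in any barcode. Its level in the B gate was 19.5 CPM (16.5 to 23.0) and 15.0 CPM (13.4 to 16.8). This exceeded the Il9r level of the plasma gate, 1.14 and 1.24 CPM, and of the cell-free barcodes with fewer than 100 UMIs, 9.94 and 11.4 CPM. It was below that of the ILC2 gate, 89.5 and 65.1 CPM, and of the mast gate labelled Ring1AKO, 81.8 CPM. The log2 ratio of Il9r in the B gate was -0.38 (-0.67 to -0.08). The B gate made up 21.1% of kept barcodes labelled WT and 48.0% labelled Ring1AKO. The total of Il9r over all kept barcodes was 5.80 and 6.77 CPM, but 59.8 and 59.0 UMIs per 1000 kept barcodes. The part of the B gate in this total was not tested. In the Treg gate Il9r was lower (16 and 8 UMIs).

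RNA free in the cell suspension can add UMIs of a gene to cells that do not express it. In cell-free barcodes Gata3 had 40.8 and 34.3 CPM, Il4 31.0 and 26.3, Csf2 32.1 and 31.3 and Calca 26.6 and 55.6, so the free RNA of Calca was higher in the library labelled Ring1AKO. The B gate, which should lack all of them but Il9r, showed Gata3 at 5.69 and 6.83 CPM, Calca at 2.44 and 4.13 CPM and the other 6 at 5.15 CPM or less. At equal depth, 0.316% of B gate barcodes had a Gata3 UMI in both libraries, against 55.4% and 66.3% of the ILC2 gate, at median depths of 4263 and 4375 UMIs in the B gate before thinning. Levels of a few CPM, as in the monocyte/macrophage, dendritic and plasma gates, are read as background.

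The likeness of other genes to the 9 was taken across gates. The 26 points were 13 gates with at least 20 barcodes in each library, counting the barcodes in no gate as 1 of them. Pearson's r of log2(CPM + 10) with Il4 was, outside the 9, highest for 1700061F12Rik (0.97), Ccl1 (0.96) and Chdh (0.92) out of 11359 genes. Chdh and Ccl1 were also the highest outside the 9 for Il5 and Il13. Some of the 9 were as like each other, with r = 0.96 for Il4 with Il17rb. The mast and basophil gates had too few barcodes to be among the points, and they held Il4 but 0 UMIs of Il17rb. Chdh lies 127 bp from Il17rb, on the other strand, and had r = 0.97 with it. Hlf was most like Ptpn13 (0.96), a tyrosine phosphatase gene whose level in the ILC2 gate was 436 CPM labelled WT and 170.1 labelled Ring1AKO. Gata3 was most like Nr3c1, the glucocorticoid receptor gene (0.93), and Csf2 like Ccdc184 (0.93). Between members, r was 0.97 for Il5 with Il13 and 0.58 for Il4 with Csf2. For Il4 the ILC2 gate had 690 and 550 CPM, and the next highest of these gates, CD4 T, 60.7 and 53.8 CPM. Points so far above the rest weigh heavily in r. The points share libraries, depth and the free RNA of each library, and r describes these gates only.

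Macrophages answer IL-4 and IL-13 with a known set of genes. Of 10 such genes, 9 had at least 20 UMIs in the monocyte/macrophage gate (1001 and 465 barcodes), where 3 were at least 2-fold higher in the library labelled Ring1AKO and 2 lower, against 5.09% higher and 5.31% lower among 10304 genes. Arg1, an arginase, had 103 and 193 UMIs, a log2 ratio of 2.31 (1.96 to 2.68), and Mrc1, the mannose receptor, 74.4 and 165 CPM. Ccl22, a chemokine, had 36 and 27 UMIs, or 3.85 and 7.69 CPM, a log2 ratio of 1.01 (0.22 to 1.76). Ccl22 is on the marker list of the dendritic gate, and levels of a few CPM are read as background here. Retnla, a secreted resistin-like protein, had 44.0 and 9.68 CPM and Socs1, a signalling inhibitor, 66.6 and 23.9 CPM, so the genes of this set differed in both directions. Genes of lymphocytes were also higher in this gate, with Il1rl1 at 1.93 and 8.26 CPM, Icos at 6.96 and 15.9 CPM and Gata3 at 3.00 and 8.54 CPM, and their part in the result was not tested.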

How the data were processed

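The authors deposited raw UMI counts per gene and barcode for all barcodes, with no normalization and no replicates, from 10x Genomics 3′ libraries of sorted CD45+ cells. The submitters' processing notes name Cell Ranger 6.0.2 and mm39, the matrix header names Cell Ranger 4, and the methods name mm10, so the build was not settled. Positions came from GENCODE vM21 on GRCm38 for names and places only, with 32099 of the 32228 gene IDs matched. The tables held 74414511 and 81862096 UMIs, of which kept barcodes held 61864835 and 69029466, and the libraries shared 11 kept barcode sequences.

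Kept barcodes were gated by counts of distinct markers. A barcode with at least 2 of 3 CD3 genes could not enter the ILC2, ILC3 or NK/ILC1 gates, and T cells needed them. T cells were split by Foxp3 (Treg), by Cd4 (CD4 T) and the rest (other T), with Cd8 or Trdc barcodes in the rest. Doublets were kept, since the methods name no doublet step. Levels are summed UMIs over the summed UMIs of the gate, with Poisson intervals. Shares have Clopper-Pearson intervals, and log2 ratios, with 1 UMI added, have exact conditional intervals. No p-value was computed. UMIs of a gene cluster in few barcodes, which these intervals do not cover. A gate sum of 0 allows a level of up to 3 UMIs.

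The genes named are the 9, 5 pathway lists, neighbours and paralogs, Ring1, marker genes and, for each of the 9, the 3 genes most like it among those with at least 200 UMIs. Members and lists were chosen with earlier results of these data known. Other filters, gate limits, scalings, depths and free RNA corrections were tried, 11 in all, as were 3 chosen once values had been seen. Simulated gate sums with known folds were used to check the computation of the log2 ratios. They were drawn from a Poisson distribution, so the check does not cover the clustering of UMIs in few barcodes. Software was matplotlib 3.10.9, pandas 2.3.3, scipy 1.17.1 and numpy 2.4.6 under Python 3.11.15.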

Additional observations from a re-analysis of the deposited data

Results flagged for a closer look

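Some genes lay beyond counting error in opposite directions in 2 gates. No test of these differences between gates was possible with 1 library per group, and they were not tested. Il4 had a log2 ratio of 1.56 in the basophil gate and -0.32 in the ILC2 gate, and Il13 one of 1.16 and -0.23. With the mast and basophil lists as 1 gate, Il4 had 1.13 and Il13 -0.10. In the barcodes of that joined gate where mast cell proteases led, Il4 had 521 CPM labelled WT and 1090 labelled Ring1AKO. Where the basophil protease Mcpt8 led, it had 369 and 273 CPM, from 28 and 11 UMIs in 9 and 5 barcodes. These barcodes were few and were not limited to the basophil gate, and no interval was computed for them. Il5 had a log2 ratio of -3.82 in the other T gate, from 89 and 6 UMIs, and 0.33 in the ILC2 gate. Without the 5 barcodes of each library with the most Il5, the ILC2 gate had -0.57 and the other T gate was left with 14 and 0 UMIs. The opposite directions of Il5 thus rested on few barcodes. Gata3 had a log2 ratio of -0.72 in the Treg gate and -0.56 in the other T gate, and 0.30 in the ILC2 gate. All 3 kept their direction without the 5 barcodes of each library with the most Gata3, at -0.57, -0.60 and 0.22. The share of Treg gate barcodes with a Gata3 UMI was not lower, at 48.3% labelled WT and 51.5% labelled Ring1AKO. In that gate, 11 of 205 and 37 of 231 barcodes had 3 or more markers of a second list. The chemokine gene Ccl17 had 0 and 237 UMIs there. Other named genes went both ways, with Rora at -0.91, Ets1 at -0.68, Batf at 0.54 and Crlf2 at 0.40. No share over all genes was taken in the Treg gate, and the part of these differences in the Gata3 ratio was not tested.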

How the results depend on the processing

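No paired analysis was possible because each group had 1 library. Over 11 or 12 alternatives, the log2 ratios of Il4, Il13, Calca, Il17rb, Gata3 and Hlf kept their direction in the ILC2 gate (among them Il17rb at -0.87 to -0.57 and Hlf at -1.73 to -0.99), and those of all 9 genes did over all kept barcodes. Of 207 log2 ratios, 172 stayed within the main counting interval. With a gate minimum of 4 markers, the ILC2 gate had log2 ratios of -0.73 for Il4, 0.78 for Il5 and 2.48 for Calca, and 1.77% and 0.783% of barcodes. With a minimum of 2, it had 3.38% labelled WT. Leaving out barcodes with 3 markers of a second list gave the same gate 3.40% labelled WT, and over all kept barcodes -1.05 for Il4, -1.22 for Il13, -0.50 for Csf2 and -0.50 for Gata3. A mean of the CPM of each barcode gave, over all kept barcodes, -0.83 for Il4, -0.91 for Il5, -1.01 for Il13, 0.80 for Calca, -1.54 for Il17rb, 0.0049 for Il9r, -0.65 for Gata3 and -1.80 for Hlf, and 1.96 for Calca in the ILC2 gate. Totals without immunoglobulin, ribosomal protein and mitochondrial genes gave -0.37 for Il4, -0.70 for Il13, -0.68 for Csf2, 1.11 for Calca and -0.28 for Gata3 over all kept barcodes. Thinning to 1000 UMIs gave -1.03 for Il4, -1.15 for Il13, 0.63 for Calca, -1.58 for Il17rb, -0.62 for Gata3 and -2.01 for Hlf there, and 1.76 for Calca and 0.48 for Gata3 in the ILC2 gate. Subtracting free RNA at 10% gave -0.97 for Csf2 over all kept barcodes. Without the 5 barcodes of each library with most UMIs of the gene, the ILC2 gate had -0.62 for Il4, -0.57 for Il5 (the other direction), -0.75 for Il13, 1.57 for Calca and -1.73 for Hlf, and the ILC3 gate 0.22 for Csf2 (the other direction). With the mast and basophil lists as 1 gate, Il13 had -0.10, against 1.16 in the basophil gate. Except for the last 2 settings, which by construction leave out or move single barcodes, the causes were not tested. The share of a gene's UMIs in the ILC2 gate moved with the gate minimum and when barcodes with 3 or more markers of a second list were left out. For Il4 the share lay between 35.5% and 58.6% labelled WT and between 14.5% and 46.4% labelled Ring1AKO. Such barcodes are not proven doublets. They made up 16 of 17 in the mast gate and 12 of 17 in the basophil gate labelled Ring1AKO, and 7 of 14 in the basophil gate labelled WT. Fcer1a, Ms4a2, Hdc and Gata2 of the basophil list were also used to check the mast gate, so barcodes of mast cells can score on both lists. Genes with under 20 UMIs in a gate could not be compared at this depth.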
